A study of Rattus norvegicus with 12 samples.

Results

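The early response to reperfusion was followed in the ventricles of rats 2 days after the left anterior descending coronary artery (LAD) had been closed for 30 min and reopened (IR), against rats with sham surgery in which the artery was not closed. The comparison uses 6 of the 12 arrays of the study, chosen by the day and the surgery in their labels: 3 IR arrays (replicates 69, 73 and 76) and 3 sham arrays (replicates 71, 72 and 74), with 1 rat per array. The other 6 arrays, 3 IR and 3 sham rats of day 7, entered the fit for its estimate of the spread. The labels used here name no strain, sex or age and do not say which part of the ventricle was sampled. Both groups had surgery. Each array gives a signal for 15923 probe sets, short probes that together read a transcript, and 10527 probe sets were bright enough to be tested.

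After the artery is reopened, injured heart muscle releases signals that draw white blood cells from the blood, first neutrophils and then monocytes, which become macrophages. These cells clear dead myocytes and red cells that leaked from damaged vessels, while fibroblasts divide, migrate and begin to lay down a provisional matrix. The surviving muscle relies on mitochondria that burn fatty acids, and genes of this metabolism are known to be lower in injured ventricles.

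The tissue carried the defining transcripts of ventricular muscle on every array. Tnni3, Myl2, Myh6 and Mb, which encode cardiac troponin I, ventricular myosin light chain, a cardiac myosin heavy chain and myoglobin, lay at or above the 98.8th percentile of all probe sets on the 6 arrays. Of the lung and epithelial markers, Hopx, which heart muscle also makes, had signals of 4214 to 8475. The other 10 stayed at or below 918, reached by Napsa, an aspartic protease of lung, and Sftpb, a surfactant protein, was at 8.9 to 36.6. Markers of skeletal muscle were divided, and 9 of the 18 on the array were bright enough to be tested. Tnnt3, Tnni2, Tnnc2, Myh2 and Actn3 of fast muscle were below the filter, at 497.3 or less on the 6 arrays. Myh4, a fast myosin, was at 7.6 to 178.5 and Pvalb, parvalbumin, at 24.0 to 180.6. Myh1, another fast myosin, was at 27890 to 39200 and Casq1, the calsequestrin of fast muscle, at 2303 to 3206 on the 6 arrays of both groups. The specificity of the Myh1 probe set was not tested. Hbb, the beta chain of haemoglobin, lay between 51297 and 69618, so that blood was present in all 6 samples.

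Of the 10527 probe sets, 198 (1.88%) were called higher and 62 (0.589%) lower in IR ventricles, together 2.47%, at an adjusted p under 0.05 from limma over all probe sets. After median centring of the arrays the split was 173 higher and 104 lower, so that the share of higher calls fell from 76.2% to 62.5%. These probe sets stood for 153 genes that rose and 49 that fell, together 2.62% of 7720 genes, and in all 202 genes the 3 IR arrays lay on 1 side of the 3 sham arrays. Among all tested probe sets the groups did not overlap for 13.9% with IR higher and 12.5% with IR lower. The increases were larger than the decreases, with 63 genes changed by 2-fold or more upward and 4 downward on the scale used, the log2 of the signal plus a fixed offset. The offset shrinks the change of dim genes, and 6 of the genes that rose had a mean sham signal below it. The p-values measure the spread between these rats, and in whole tissue a shift in the number of cells of a type and a shift in RNA per cell cannot be told apart.

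**Figure D1:**
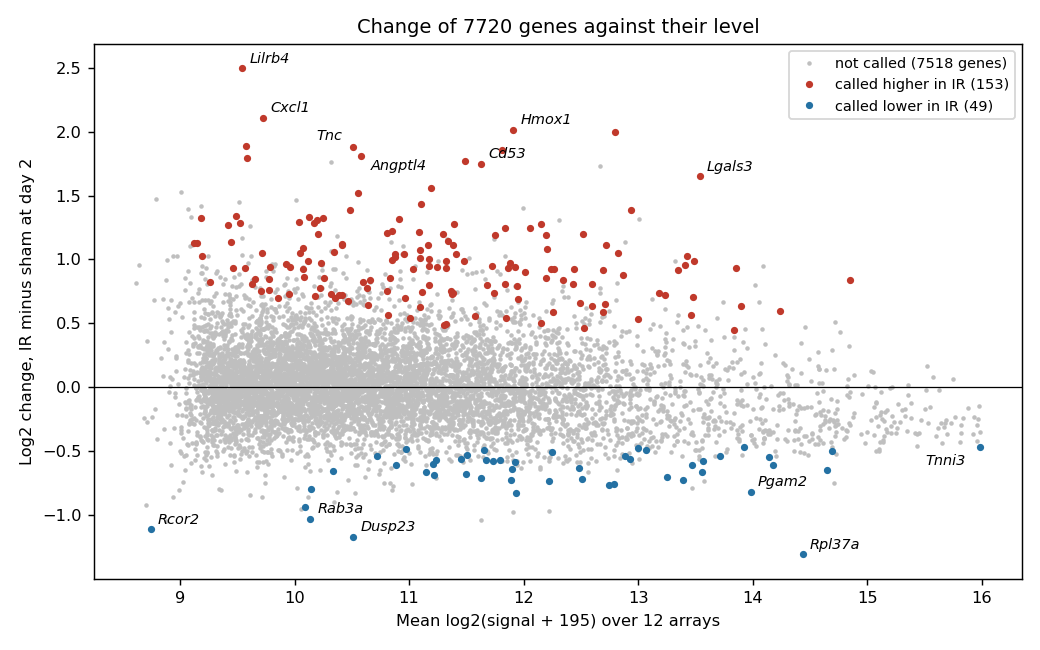
Log2 change from sham to IR at day 2 (vertical axis) against mean log2(signal + offset) over the 12 arrays (horizontal axis) for 7720 genes, with called genes in red (153 higher) and blue (49 lower). Increases reach 2.49 (Lilrb4) and decreases -1.31 (Rpl37a); of 257 genes brighter than 14 on the horizontal axis, 204 lay below 0.

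The count of calls rested on single arrays. It was 2 without IR replicate 69, 2 without sham replicate 71 and 2 without sham replicate 72, and the same pair of genes, Cd53 and Rpl37a, passed in each of these fits. It was 100 without sham replicate 74, 147 without IR replicate 76, 515 without IR replicate 73 and 501 without replicate 82 of the day 7 sham group. Every other gene named below as risen or fallen therefore lost its call without replicate 69, 71 or 72. All 202 genes kept their sign without replicate 69, which follows from their groups not overlapping and is no separate check. Replicate 69 was the IR array farthest from sham for 177 of the 202 genes, and the median change without it was 0.82 of the reported change for genes that rose and 0.87 for those that fell. These genes were called with replicate 69 in the fit, which can favour genes on which it lay far out. The same share over all genes was not counted. On the first principal component of the 6 arrays it lay at 33.03, against 5.94 and 10.70 for the other IR arrays and -19.11 to -12.14 for sham. The log2 ratios of 3′ to 5′ probe sets of 3 control transcripts, a sign of RNA quality, lay on replicate 69 within the range of the other 5 arrays. For Gapdh the ratio was 0.25 on replicate 69 and 0.21 to 0.44 on the others, and the means of IR and sham gave an exact two-sided permutation p of 0.6, where 0.1 is the smallest possible.

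**Figure D2:**
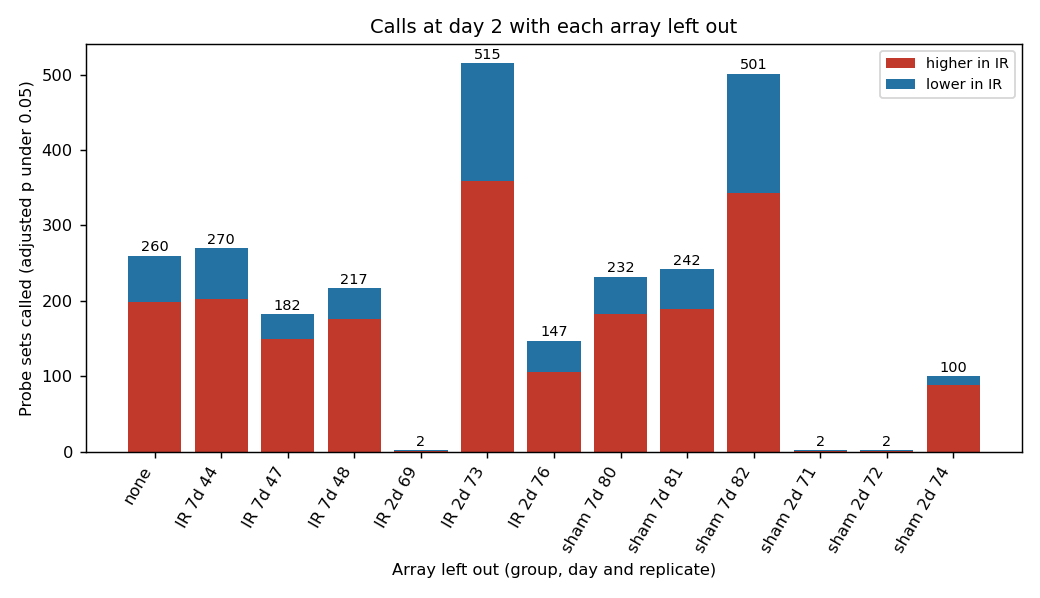
Number of probe sets called at day 2 (vertical axis, stacked as higher and lower in IR) with no array or 1 of the 12 arrays left out (horizontal axis). The count is 260 with all arrays, 2 without IR replicate 69 or sham replicate 71 or 72, and 515 without IR replicate 73.

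**Figure D3:**
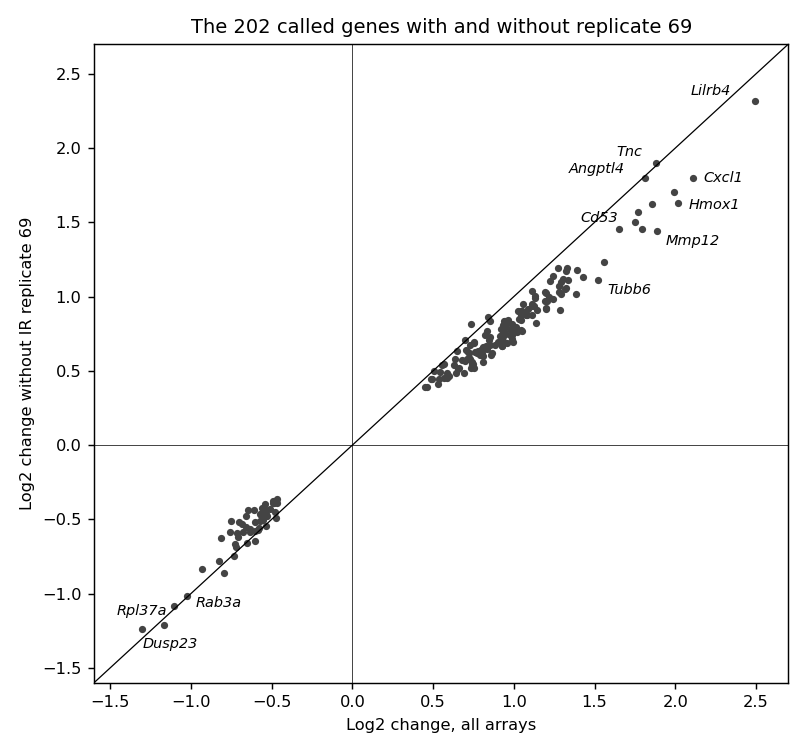
Log2 change of the 202 called genes without IR replicate 69 (vertical axis) against the change with all arrays (horizontal axis); the diagonal marks equal values. All 202 points keep their sign, which follows from groups that do not overlap. Of these genes, which were called with that array in the fit, 191 lie nearer to 0 without it.

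Of the 46 gene lists described, that of macrophages and monocytes held the most genes that rose. Over all 7720 genes 2.62% were called either way, the share to set beside each list below. Lists share members, so that a gene can count in more than 1. Of 27 macrophage and monocyte markers tested, 18 rose and 0 fell, with a median log2 change of 1.01 (0.78 without replicate 69) beside 0.01 over all 7720 genes. All IR arrays lay above all sham arrays for 21 of the 27 and below them for 1, against 13.9% and 12.5% over all probe sets. The gene with the firmest increase was Cd53, a tetraspanin of white blood cells, whose promoter in RefSeq (build GRCr8, chr2:197087847-197088146, minus strand, 250 bases before to 50 after the start) is shown because the gene passed in every fit. The capitals mark the 1 match to GAGGAAGT, the core bound by ETS factors such as PU.1 of myeloid cells, which lies on the other strand 46 to 39 bases before the start.
Cd53: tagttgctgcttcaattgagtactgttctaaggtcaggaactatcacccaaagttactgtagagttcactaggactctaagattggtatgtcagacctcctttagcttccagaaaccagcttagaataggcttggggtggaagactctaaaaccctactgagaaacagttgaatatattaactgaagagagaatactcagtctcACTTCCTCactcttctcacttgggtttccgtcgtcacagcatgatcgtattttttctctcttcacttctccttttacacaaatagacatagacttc
The signal of Cd53 was 7549, 4106 and 4796 in IR replicates 69, 73 and 76 and 1581, 1376 and 1380 in sham replicates 71, 72 and 74, the order kept below. The lowest IR array was thus far above the highest sham array, and the log2 change was 1.75 (SE 0.21, adjusted p = 0.00316), a 3.36-fold increase. Without replicate 69 it was 1.50 (adjusted p = 0.0164).

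Lilrb4, an inhibitory receptor of myeloid cells, had signals of 2371, 1470 and 1692 in IR and 110, 126 and 266 in sham ventricles. Its sham signals lay at the dim end of the array, and its change was 2.49 (SE 0.33, adjusted p = 0.00794). The size of that change depends on the offset, at 3.17 with an offset of 50 and 1.44 with 800. Tyrobp, the signalling adaptor DAP12 that such receptors use, went from 1341, 1567 and 1790 in sham to 5800, 3327 and 3440 in IR, a change of 1.28 (SE 0.20, adjusted p = 0.0132). Fcer1g, the gamma chain shared by Fc receptors, was bright in both groups, at 18033, 11696 and 13208 against 5824, 6626 and 8137, and rose by 1.03 (SE 0.18, adjusted p = 0.0163). For both adaptors every IR array lay above every sham array. Cd14, the co-receptor for bacterial lipopolysaccharide, rose by 1.32 (SE 0.26), from 936 to 1420 in sham to 2425 to 4449 in IR. Csf1r, the receptor for the growth factor that macrophages depend on, rose by 0.80 (SE 0.18), and C5ar1, the receptor for complement fragment C5a, by 0.76 (SE 0.19). Ptprc, the phosphatase CD45 of all white blood cells, rose by 0.96 (SE 0.20), from 352 to 659 in sham to 816 to 1274 in IR; a second probe set gave 0.83 and did not pass (adjusted p = 0.0691). Lyz2, the lysozyme of macrophages, was among the brightest genes that rose, at 33233 to 42060 against 17121 to 27452 (0.84, SE 0.18). The markers Cd68 and Fcgr2b did not pass, at 1.01 (adjusted p = 0.136) and 1.46 (adjusted p = 0.0852); sham replicate 74 had 3482 for Cd68, above the 2450 of IR replicate 73. Aif1, also in the list, did not pass at 1.07 (adjusted p = 0.0614), and its other probe set gave -0.008 (adjusted p = 0.989). Fcer1g, Csf1r, Ptprc and Lyz2 were picked within the marker list after their values were seen.

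Other genes that rose encode enzymes and secreted proteins. Arg1, the arginase that turns arginine into ornithine and urea, had signals of 1718, 1127 and 877 in IR and 262, 404 and 422 in sham ventricles. All IR arrays lay above all sham arrays, with replicate 69 the highest, and the change was 1.34 (SE 0.27, adjusted p = 0.0269). Sat1, which acetylates the polyamines made downstream of ornithine, went from 1874 to 1961 in sham to 3647 to 6360 in IR (1.19, SE 0.19, adjusted p = 0.0132), and Srm, the synthase of the polyamine spermidine, from 496 to 697 to 1095 to 2023 (0.99, SE 0.21, adjusted p = 0.0285). Fcnb, a ficolin that tags sugars on microbes and debris, had 2258, 2152 and 1260 against 397, 552 and 994 (1.33, SE 0.32, adjusted p = 0.0436), so that sham replicate 74 came near IR replicate 76. Anpep, the surface aminopeptidase CD13, rose by 1.21 (SE 0.20, adjusted p = 0.0134). Serpinb1a, an inhibitor of neutrophil proteases, rose by 1.22 (SE 0.28, adjusted p = 0.0384). Pf4, a chemokine stored in platelets and also made by macrophages, rose by 0.90 (SE 0.18, adjusted p = 0.0274), whereas the red cell gene Alas2 gave 0.27 (adjusted p = 0.537). Anpep and Serpinb1a were chosen after their values were seen.

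**Figure D4:**
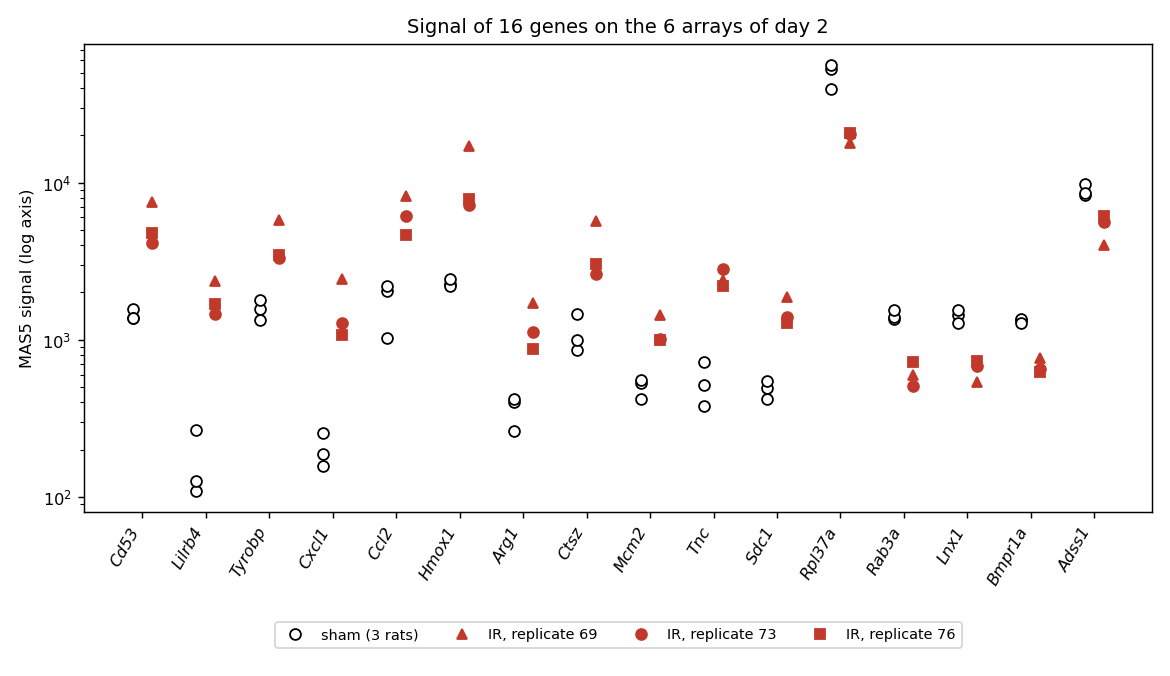
MAS5 signal (log axis) of 16 genes on the 6 arrays of day 2, with sham rats as open circles and each IR rat by its own red symbol. The groups do not overlap for any of the 16; replicate 69 (triangles) is the highest IR array for Cd53 (7549) and Hmox1 (17004) but not for Tnc, where replicate 73 has 2837.

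Among 23 chemokines and their receptors tested, 3 rose, Cxcl1, Ccl2 and Ccl6, and 0 fell (median 0.34). Cxcl1 draws neutrophils, and its promoter (GRCr8, chr14:17479272-17479571, minus strand) is shown because it was the gene called higher whose window held a match to an NF-kB motif (GGGACTTTC, GGGAATTTC or GGGAAATTC on either strand). The capitals mark 2 overlapping matches, 1 on each strand, 84 to 74 bases before the start.
Cxcl1: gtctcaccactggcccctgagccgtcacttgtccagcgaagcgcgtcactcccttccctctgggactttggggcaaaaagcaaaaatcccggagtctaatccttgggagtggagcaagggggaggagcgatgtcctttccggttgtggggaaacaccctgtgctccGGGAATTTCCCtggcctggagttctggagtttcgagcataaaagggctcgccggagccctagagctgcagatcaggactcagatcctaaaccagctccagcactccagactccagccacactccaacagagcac
Such a match was present in 0.8% of 125 promoters of genes that rose and 0.883% of 6456 promoters of tested genes. The signal of Cxcl1 was 2428, 1276 and 1072 in IR and 157, 256 and 189 in sham ventricles, and the change was 2.11 (SE 0.51, adjusted p = 0.0448). Against the sham arrays of day 7, at 765, 1520 and 234, it was 0.93 (limma adjusted p = 0.382). Ccl2, which draws monocytes, had 8187, 6165 and 4652 against 1021, 2047 and 2207 (1.77, SE 0.39, adjusted p = 0.0326). Ccl6, a chemokine of myeloid cells, had 3602, 2453 and 2643 against 1176, 854 and 1779 (1.11, SE 0.27, adjusted p = 0.0436). For each of the 3 the sham arrays of day 2 differed among themselves, about 2-fold for Ccl2 and Ccl6, and still lay below all IR arrays of that day. Against the sham arrays of day 7 the changes of Ccl2 and Ccl6 were 1.31 and 0.61, and neither passed. Of the chemokine receptors, Ccr1 had the largest change that did not pass (0.81, adjusted p = 0.111).

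Of 26 genes of the interleukin-1, interleukin-6 and tumour necrosis factor pathways, 1 rose and 0 fell (median 0.42). It was Il18, a cytokine of the interleukin-1 family, with 999, 849 and 900 in IR against 432, 492 and 471 in sham ventricles (0.75, SE 0.16, adjusted p = 0.0285). Casp1, the protease that activates interleukin-18 and interleukin-1 beta, had 1338, 1317 and 1254 against 656, 609 and 636 (0.85, SE 0.20, adjusted p = 0.042). Both genes varied little within a group, and neither had overlapping groups. Il6 itself did not pass, although its signals of 860, 424 and 505 lay above the 32, 155 and 45 of sham (1.53, SE 0.50, adjusted p = 0.0997). Its adjusted p was 0.0302 with the 6 arrays of day 2 alone. Against the sham arrays of day 7, at 662, 857 and 130, its change was 0.21 (limma adjusted p = 0.872). Alox5ap and Lta4h, both needed to make leukotrienes from arachidonic acid, rose by 0.76 (SE 0.17, adjusted p = 0.0383) and 0.63 (SE 0.12, adjusted p = 0.0246), and were chosen after their values were seen. Of 28 genes of complement, coagulation and fibrinolysis, C5ar1 and the urokinase Plau rose and 0 fell. Of 32 genes of antigen presentation and interferon response, 1 rose, Ifitm1 (0.91, SE 0.22, adjusted p = 0.045), with signals of 12339 to 18151 against 5611 to 10100. The share called over all genes was 2.62%, and 1 call in a list of 26 or 32 genes lies near it.

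Markers of other white blood cells gave a different count. Of 18 neutrophil markers listed, 9 were on the array and 4 were tested, and 0 of these passed (limma, 3 against 3 arrays). S100a9, a chain of the calprotectin complex of neutrophils and monocytes, had 5330, 4215 and 2912 in IR and 1219, 1250 and 2225 in sham ventricles (1.31, SE 0.34, adjusted p = 0.056). Il1r2, the decoy receptor for interleukin-1, had 632, 473 and 373 against 40, 44 and 112 (1.40, SE 0.52, adjusted p = 0.142). The groups did not overlap for these and for S100a8 (1.18, SE 0.43, adjusted p = 0.132), which was 3 of the 4 tested, against 13.9% over all probe sets. These 3 passed when the 6 arrays of day 2 were fitted alone, at adjusted p = 0.0222 for S100a9, 0.0346 for Il1r2 and 0.03 for S100a8. Against the sham arrays of day 7 S100a9 gave -0.81 and S100a8 -0.22, the other way. The proteases Mmp8 and Mmp9 of neutrophil granules were too dim to be tested, at 217 to 408 and 28 to 222 on the 6 arrays. Of 9 lymphocyte and natural killer cell markers tested, 0 passed, the median was 0.03 and the groups overlapped for all 9. Cd3e and Cd79b, which define T and B cells, were below the filter, at 122 to 321 and 37 to 118.

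Some lysosomal and lipid-handling genes rose. Of 36 genes of the lysosome and phagocytosis, 5 rose and 0 fell (median 0.33, and 0.20 without replicate 69), namely the cathepsin proteases Ctsz, Ctss, Ctsl and Ctsb and the glucuronidase Gusb. Ctsz had 5719, 2609 and 3042 in IR and 866, 1000 and 1458 in sham ventricles (1.56, SE 0.26, adjusted p = 0.0147). Gusb had 1774, 1657 and 1806 against 1034, 1057 and 1046 (0.65, SE 0.12, adjusted p = 0.0176). The spread of Gusb within each group was small, and its change without replicate 69 was 0.63. Gm2a, the lysosomal activator of ganglioside breakdown, rose by 0.94 (SE 0.20, adjusted p = 0.0285). Apoe, the lipid carrier that macrophages secrete, rose by 0.96 (SE 0.20, adjusted p = 0.0285), from 5446 to 7049 in sham to 9078 to 17325 in IR. Soat1, which esterifies cholesterol for storage, had 1354, 459 and 781 against 216, 242 and 321 (1.14, SE 0.26, adjusted p = 0.0405), and a second probe set gave 1.27 (adjusted p = 0.0522). Fabp5, a fatty acid carrier of macrophages and endothelium, rose by 1.11 (SE 0.18, adjusted p = 0.0132). The mean of the macrophage markers was 1.50, 0.72 and 0.93 above the sham mean on the 3 IR arrays and -0.15 to 0.24 on the sham arrays. That of the lysosome list was 0.56, 0.22 and 0.29 on the IR arrays. Both lists hold Ctss, counted as risen in each, and the part of the one shift in the other was not tested. Gm2a, Apoe and Soat1 were chosen after their values were seen.

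The lists of genes that answer haem, low oxygen and other stress held 0 to 2 calls each, beside 2.62% over all genes. Hmox1, which breaks down haem, had 17004, 7157 and 7857 in IR and 2259, 2192 and 2441 in sham ventricles, with replicate 69 the highest by far (2.01, SE 0.31, adjusted p = 0.0132; 1.63 without it). It was the 1 gene called of 16 that handle haem and iron (median 0.12). Hamp, which encodes the iron hormone hepcidin, had 14705, 5427 and 4557 in IR and 3061 to 3811 in sham (1.03, adjusted p = 0.111). Of 31 antioxidant genes 0 passed, with a median of -0.02. Akr1b8, an aldehyde reductase outside that list, rose by 1.29 (SE 0.29, adjusted p = 0.0351) and was chosen after its values were seen. Of 39 chaperones, 1 rose, Dnajc3, a co-chaperone of the endoplasmic reticulum (0.86, SE 0.20, adjusted p = 0.042).

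Of 25 genes induced by hypoxia, 1 rose and 0 fell, with a median of 0.01. It was Angptl4, a secreted inhibitor of lipoprotein lipase, with 2641, 2714 and 2437 in IR and 504, 513 and 822 in sham ventricles. The 3 IR arrays were close together, and the change was 1.80 without replicate 69, beside 1.81 (SE 0.38, adjusted p = 0.0285) with it. Against the sham arrays of day 7 the change was 0.86. Angptl4 also belongs to the list of 19 glucocorticoid-responsive genes, of which 2 rose; the other was Sgk1, a kinase that regulates ion transport, with 3361, 2352 and 2671 against 1440, 1156 and 1438 (0.95, SE 0.18, adjusted p = 0.0185). Of 30 immediate early and growth-response genes, Sgk1 and Dusp6, a phosphatase that switches off ERK kinases, rose (median 0.37), 24 had a change above 0, and 12 had all IR arrays above all sham arrays, against 13.9% over all probe sets. Dusp6 gave 0.99 (SE 0.24, adjusted p = 0.0433) with its brightest probe set and 0.66 and 0.47 with the other probe sets, which did not pass.

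**Figure D5:**
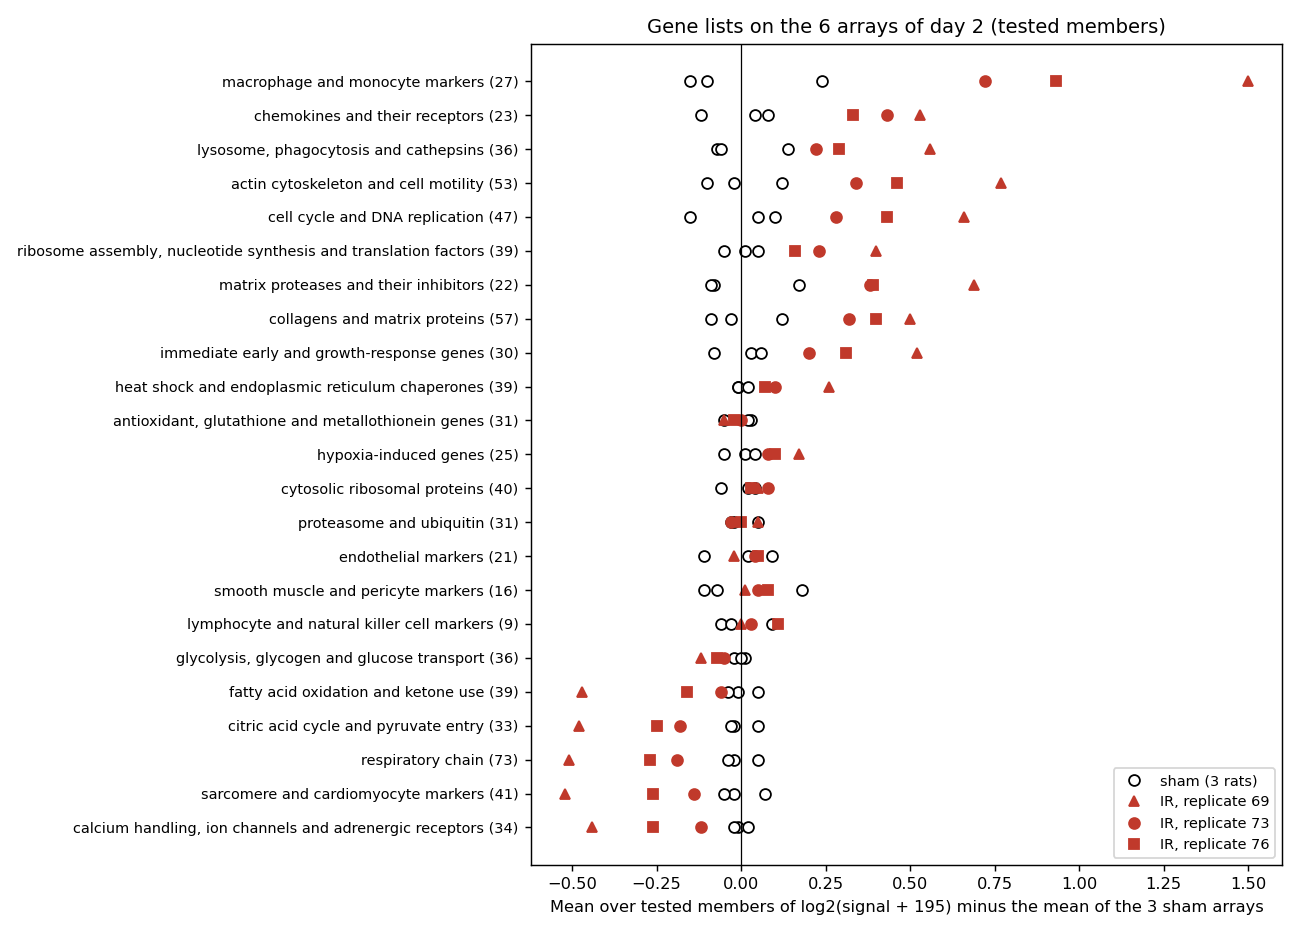
Mean over the tested members of each gene list (number in brackets) of log2(signal + offset) minus the sham mean (horizontal axis), for sham rats (open circles) and IR rats (red symbols) at day 2. The macrophage markers lie at 0.72 to 1.50 in IR and the respiratory chain at -0.51 to -0.19, with replicate 69 the farthest out in both.

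The actin cytoskeleton held the most calls after the macrophage markers. Of 53 genes, 15 rose and 0 fell, with a median of 0.55 (0.45 without replicate 69). The IR arrays lay above all sham arrays for 32, against 13.9% over all probe sets. Cotl1, an actin-binding protein that was not in the list, had 5178, 2598 and 2794 in IR and 787, 1017 and 1726 in sham ventricles (1.43, SE 0.31, adjusted p = 0.0308). Coro1a, the coronin of white blood cells, had 2569, 1732 and 1633 against 643, 785 and 952 (1.12, SE 0.21, adjusted p = 0.0223). Genes of wider use rose too. The Arp2/3 complex, which starts branched actin filaments, was represented by Arpc1b (1.05, SE 0.19), Arpc5 (0.81, SE 0.16), Arpc3 (0.85, SE 0.20) and Actr2 (0.59, SE 0.14). Rhoa, the small GTPase that drives stress fibres, had 9305, 6549 and 7406 against 3558, 3518 and 4989 (0.92, SE 0.17, adjusted p = 0.0176); a second probe set gave 0.44 and did not pass (adjusted p = 0.155). Msn, which links actin to the membrane, rose by 0.88 (SE 0.18, adjusted p = 0.0263) and Capg, a filament-capping protein, by 0.94 (SE 0.18, adjusted p = 0.0203). On the 3 IR arrays the list stood at 0.77, 0.34 and 0.46, the order in which the macrophage markers stood. Both lists hold Coro1a and Arhgdib, which are counted as risen in each, and how much of the one shift lies in the other was not tested. Arpc3, Arpc5, Actr2, Rhoa, Msn and Capg were chosen within the list after their values were seen.

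Tropomyosin 3, a non-muscle and slow-muscle tropomyosin, showed how far probe sets of a single gene can part. Its 7 tested probe sets gave log2 changes of 0.31 to 2.58, all positive, and 4 passed; the brightest, which stands for the gene, gave 0.93 (SE 0.22, adjusted p = 0.0431), and the largest 2.58 (SE 0.39, adjusted p = 0.0128). Both probe sets of Tpm4 rose, by 0.72 (adjusted p = 0.0342) and 1.33 (adjusted p = 0.0145). Over all called genes, 34 further probe sets were tested, of which 33 had the sign of the gene's main probe set and 9 passed; those of Actr2, Kpnb1, Mapre1, Msn, Slc2a4 and Acsl1 did not pass. Of 19 tubulins and microtubule proteins, 4 rose and 0 fell. Tubb6, a beta tubulin, had 4462, 1448 and 2216 against 705, 676 and 802 (1.52, SE 0.28, adjusted p = 0.0185), and Mapre1, which binds growing microtubule ends, had 7081, 5602 and 5034 against 3823, 3889 and 3768 (0.59, SE 0.13, adjusted p = 0.0318). The muscle-enriched Tuba8 did not pass (-0.96, adjusted p = 0.0798). Tpm3 and Tpm4 were chosen after their values were seen.

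Of 47 genes of the cell cycle and DNA replication, 3 rose and 0 fell, although 41 had a change above 0 (median 0.46). In 24 of them all IR arrays lay above all sham arrays, against 13.9% over all probe sets. Mcm2, a subunit of the replicative helicase, is a textbook target of E2F factors, and its promoter (GRCr8, chr4:122918045-122918344, minus strand) is shown for that reason. The capitals mark 2 overlapping matches to TTTCGCGC, 1 on each strand, 14 to 3 bases before the start.
Mcm2: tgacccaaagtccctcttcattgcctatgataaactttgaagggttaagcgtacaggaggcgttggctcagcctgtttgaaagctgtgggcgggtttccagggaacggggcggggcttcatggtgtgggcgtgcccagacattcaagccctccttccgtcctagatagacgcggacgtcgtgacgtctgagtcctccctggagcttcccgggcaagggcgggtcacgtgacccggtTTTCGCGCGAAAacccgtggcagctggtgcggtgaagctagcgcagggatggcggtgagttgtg
An E2F motif (TTTCGCGC, TTTGGCGC or TTCCCGCC) was present in 3.2% of 125 promoters of genes that rose and in 5.07% of those of tested genes. Mcm2 had 1448, 1019 and 994 in IR and 419, 533 and 554 in sham ventricles (0.94, SE 0.17, adjusted p = 0.0167), close to 2-fold with no overlap. Cdca3, which helps cells enter mitosis, rose by 0.97 (SE 0.20, adjusted p = 0.0285) and Kif22, a chromosome kinesin, by 0.93 (SE 0.22, adjusted p = 0.0431). Pclaf, a partner of the replication clamp PCNA that was not in the list, had 2381, 1294 and 1832 against 498, 619 and 717 (1.31, SE 0.27, adjusted p = 0.0285). The helicase subunit Mcm6 did not pass (1.03, adjusted p = 0.0703).

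Some genes of ribosome assembly rose as well. Of 39 genes of ribosome assembly, nucleotide synthesis and translation factors, 5 rose and 0 fell (median 0.21), namely Srm, Nhp2, Eif4a1, Ncl and Eef1b2. Nhp2, part of the particles that modify ribosomal RNA, had 4662, 3261 and 2797 in IR and 1830, 2474 and 1800 in sham ventricles (0.74, SE 0.18, adjusted p = 0.0438). Gar1, from the same particles, was dim in sham, at 77, 359 and 146, and had 1145, 491 and 682 in IR (1.32, SE 0.29, adjusted p = 0.0339). Ncl, nucleolin, rose by 0.54 (SE 0.13) and the RNA helicase of translation start Eif4a1 by 0.74 (SE 0.17). Outside the list, Ddx39a and Alyref, which help export mRNA from the nucleus, rose by 1.05 (SE 0.17, adjusted p = 0.0145) and 0.75 (SE 0.17, adjusted p = 0.0364). Ptbp1, a splicing regulator, had 4769, 3367 and 4092 against 1874, 1752 and 2427 (0.95, SE 0.17, adjusted p = 0.0167). Kpnb1 and Ran, which carry cargo through nuclear pores, rose by 0.93 (SE 0.20, adjusted p = 0.0324) and 0.64 (SE 0.15, adjusted p = 0.0431), and the cold-induced RNA-binding gene Rbm3 by 0.94 (SE 0.18, adjusted p = 0.0213). Ddx39a, Alyref, Ptbp1, Kpnb1, Ran and Rbm3 were chosen after their values were seen.

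Of 57 collagens and matrix proteins, Tnc and Fn1 rose and Lama2 fell (median 0.27), beside 2.62% of all genes called either way. Tnc, a glycoprotein of healing wounds, had 2405, 2837 and 2192 in IR and 377, 727 and 519 in sham ventricles (1.88, SE 0.34, adjusted p = 0.0176), and was as high without replicate 69 (1.90). Fn1, fibronectin of the provisional matrix, had 10545, 7085 and 6354 against 2354, 3115 and 3179 (1.39, SE 0.33, adjusted p = 0.0433). Against the sham arrays of day 7, whose signals were 12362, 12899 and 3940, its change was -0.14, so that its direction depends on which sham group is used. Lama2, the laminin chain of muscle basement membrane, had 4166, 4279 and 5023 against 7270, 6623 and 7242 (-0.63, SE 0.14, adjusted p = 0.0318). Col1a1, of fibrillar collagen, did not pass (0.95, adjusted p = 0.114), nor did Postn, periostin (1.14, adjusted p = 0.0699). Both passed with the 6 arrays of day 2 alone (adjusted p = 0.0222 and 0.0234), and both were lower than in the sham rats of day 7, at -0.63 and -0.70. Sdc1, a heparan sulphate proteoglycan of the cell surface, was the 1 gene called of 25 integrins and adhesion genes, with 1886, 1403 and 1285 against 419, 496 and 549 (1.32, SE 0.19, adjusted p = 0.0128). Of 22 fibroblast markers 1 rose, S100a4 (0.99, SE 0.24, adjusted p = 0.0436), which white blood cells also express. Cdh11, a cadherin of fibroblasts outside the list that was chosen after its values were seen, had 1374, 1412 and 1489 against 755, 554 and 839 (0.84, SE 0.16, adjusted p = 0.0185).

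Of 22 matrix proteases and inhibitors, 4 rose and 0 fell (median 0.39): Mmp12, Mmp14, Plau and Ctsl. Mmp12 is the elastase of macrophages, and its promoter (GRCr8, chr8:12866402-12866701, plus strand) is shown because AP-1 is known to drive genes of this family. The capitals mark the 1 match to TGAGTCA, an AP-1 site, 87 to 81 bases before the start.
Mmp12: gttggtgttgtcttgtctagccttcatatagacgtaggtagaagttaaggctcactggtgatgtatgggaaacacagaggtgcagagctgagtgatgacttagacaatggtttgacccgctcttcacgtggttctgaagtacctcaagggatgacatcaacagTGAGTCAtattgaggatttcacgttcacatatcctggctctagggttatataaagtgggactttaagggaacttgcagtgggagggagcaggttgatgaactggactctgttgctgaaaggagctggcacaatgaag
This motif, searched on both strands (TGACTCA on the other), was present in 3.2% of promoters of genes that rose and 3.5% of those of tested genes. The signal of Mmp12 was 3084, 555 and 2080 in IR and 311, 491 and 126 in sham ventricles (1.88, SE 0.44, adjusted p = 0.042). IR replicate 73 was thus barely above the highest sham array, and the change was 1.44 without replicate 69. Mmp14, a membrane-bound collagenase, had 3413, 2544 and 2847 against 917, 949 and 1586 (1.24, SE 0.31, adjusted p = 0.0473), and its change against the sham arrays of day 7 was -0.40, the other way. Plau, urokinase, had 1460, 728 and 737 against 325, 395 and 327 (1.05, SE 0.23, adjusted p = 0.0308), while its second probe set gave 0.40 and did not pass (adjusted p = 0.295). The inhibitor Timp1 had 15875, 11350 and 6854 against 3523, 4737 and 4440 and did not pass (1.32, SE 0.47, adjusted p = 0.128), except with the 6 arrays of day 2 alone (0.0236) and without replicate 82 of the day 7 sham group (0.0292).

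Genes of heart muscle metabolism lay below sham by small amounts, most of them short of the threshold. Of 73 respiratory chain genes 2 fell and 0 rose, yet 72 had a change below 0 and the median was -0.33. For 50 of them all IR arrays lay below all sham arrays, against 12.5% over all probe sets. The median was -0.32 for 33 citric acid cycle and pyruvate entry genes (2 fell) and -0.27 for 39 of fatty acid oxidation (1 fell, 1 rose). It was -0.32 for 41 sarcomere and cardiomyocyte markers (1 fell), beside 0.01 over all genes. The 257 genes with a mean log2 signal above 14, from which members of these lists were not taken out, had a median of -0.25. How much of the shift of the lists goes with brightness was not tested. On the IR arrays the respiratory chain stood at -0.51, -0.19 and -0.27 and the sarcomere list at -0.52, -0.14 and -0.26, so that both were lowest on replicate 69, where the macrophage markers were highest. The part of that shift in single genes of these lists was not tested. Ndufs1, the largest subunit of complex I, had 10584, 12706 and 11972 in IR and 16256, 17539 and 17501 in sham ventricles (-0.54, SE 0.11, adjusted p = 0.0285). Ndufab1, the acyl carrier protein of the same complex, had 20748, 26459 and 26376 against 32646, 38583 and 32259 (-0.49, SE 0.12, adjusted p = 0.0484). Tnni3, cardiac troponin I, had 50666, 68178 and 58749 against 76259, 90743 and 77548 (-0.47, SE 0.11, adjusted p = 0.045). For all 3 genes every IR array lay below every sham array, and without replicate 69 the changes were -0.46, -0.38 and -0.36.

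Other mitochondrial genes outside the lists fell by similar amounts, and were chosen after their values were seen. Immt, the mitofilin that shapes the inner membrane, had 10968, 12086 and 10648 in IR and 16459, 18235 and 15894 in sham ventricles, and kept nearly the same change with all arrays (-0.58, SE 0.11, adjusted p = 0.0176) and without replicate 69 (-0.56). Coq9, needed to make coenzyme Q, fell by 0.54 on the log2 scale (SE 0.13, adjusted p = 0.0431). Mfn1, which fuses mitochondria, had 3447, 4036 and 4107 against 5456, 5379 and 5847 (-0.51, SE 0.13, adjusted p = 0.0477). Micu2, a gatekeeper of the mitochondrial calcium uniporter, gave -0.53 (SE 0.13, adjusted p = 0.0484), but 0.04 against the sham arrays of day 7. Ivd, Hibadh and Ppm1k, a leucine-breakdown dehydrogenase, a valine-breakdown dehydrogenase and the phosphatase that turns on the breakdown of branched-chain amino acids, gave -0.47, -0.47 and -0.56 (adjusted p = 0.0436, 0.0453 and 0.0428). Bcat1, the cytosolic transaminase of the same amino acids, rose, with 1816, 712 and 1226 against 326, 425 and 352 (1.29, SE 0.26, adjusted p = 0.0285), while its second probe set gave 0.23 and did not pass (adjusted p = 0.69). Nfs1, which supplies sulphur for iron-sulphur clusters and was named by its size of change, fell from 3793 to 4803 in sham to 2216 to 3311 in IR (-0.68, SE 0.15, adjusted p = 0.0329).

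Some enzymes had a form that fell and another form that rose. Adss1, the muscle form of adenylosuccinate synthase in the purine nucleotide cycle, had 4003, 5620 and 6110 in IR and 8354, 9755 and 8571 in sham ventricles (-0.76, SE 0.17, adjusted p = 0.0367). Adss2, the form of other tissues, had 3629, 1892 and 2154 against 1139, 1172 and 1297 (0.93, SE 0.23, adjusted p = 0.0461). Replicate 69 was the farthest array for both forms, lowest for the muscle form and highest for the other. Acsl1, the main acyl-CoA synthetase of heart muscle, had 7635, 10407 and 12124 against 16888, 13231 and 17431 (-0.66, SE 0.17, adjusted p = 0.0484), whereas Acsl4, which prefers arachidonic acid, had 1842, 1112 and 1174 against 514, 504 and 639 (1.05, SE 0.26, adjusted p = 0.0468). Acsl6, another synthetase of this family, lay below sham and did not pass (-0.84, adjusted p = 0.0979). Signals of different probe sets are not on a common scale, so the forms were compared each with its own sham level. Of 36 genes of glycolysis and glucose transport, Pgam2, the muscle phosphoglycerate mutase, fell (-0.82, SE 0.19, adjusted p = 0.0431) from 18266, 24940 and 21665 to 9280, 14935 and 12765, and so did the glucose transporter Slc2a4. Tkt, a transketolase of the pentose phosphate pathway, rose, with 4497, 2652 and 2694 against 1236, 1216 and 1697 (1.11, SE 0.18, adjusted p = 0.0134). Adss2 was chosen after its values were seen.

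At the pyruvate entry to mitochondria, Mpc1, a subunit of the pyruvate carrier, had 15559, 23685 and 24133 in IR against 31207, 35108 and 31372 in sham ventricles (-0.65, SE 0.16, adjusted p = 0.0471). Pdp1, the phosphatase that turns on pyruvate dehydrogenase, gave -0.57 (SE 0.13, adjusted p = 0.0366), but 0.03 against the sham arrays of day 7. Of 34 genes of calcium handling, ion channels and adrenergic receptors, 2 fell and 0 rose (median -0.34), beside 2.62% of all genes called either way. Adra1b, an alpha-1 adrenergic receptor, had 2674, 3115 and 3107 against 5047, 4599 and 4479 (-0.64, SE 0.14, adjusted p = 0.0351), with both groups tight. Camk2g, a calcium/calmodulin-dependent kinase, fell by 0.48 on the log2 scale (SE 0.12, adjusted p = 0.0482). Klhl31 and Asb2, which tag muscle proteins for breakdown, gave -0.72 (SE 0.16, adjusted p = 0.0318) and -0.73 (SE 0.18, adjusted p = 0.0436), and Ank1, whose short form anchors the sarcoplasmic reticulum, -0.70 (SE 0.16, adjusted p = 0.0385). Of 25 fetal and stress-induced cardiac genes 0 passed, and the natriuretic peptide gene Nppa was at 12517 to 18636 in IR and 19245 to 37898 in sham (-0.74, adjusted p = 0.112).

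The largest decreases were in genes outside heart muscle metabolism. Rpl37a, which encodes a component of the large subunit of the ribosome, had 17841, 20270 and 20756 in IR and 39104, 52874 and 55717 in sham ventricles, a change of -1.31 (SE 0.15, adjusted p = 0.00316; -1.24 without replicate 69). It was the 1 gene called of 40 cytosolic ribosomal proteins, whose median was 0.05. Both day 7 groups were close to the IR level, with 13025 to 16521 in sham and 14127 to 18857 in IR, so that the sham arrays of day 2 were the ones that stood apart. The difference of the 2-day and 7-day effects was -1.55 (SE 0.21, adjusted p = 0.0287), and Rpl37a was the 1 probe set of 10527 (0.0095%) called for that difference; 752 had an unadjusted p under 0.05. That count was 0 in 9 of the 12 fits without 1 array, IR replicate 69 and sham replicates 72 and 74 of day 2 among those left out. Rab3a, a GTPase of vesicle release, had 596, 510 and 718 against 1352, 1387 and 1558 (-1.03, SE 0.14, adjusted p = 0.0108). Lnx1, a ubiquitin ligase, had 537, 686 and 736 against 1447, 1539 and 1275 (-0.93, SE 0.15, adjusted p = 0.0132). Dusp23, a small phosphatase, had 969, 565 and 1296 against 1645, 2895 and 2425 (-1.17, SE 0.25, adjusted p = 0.0285), and Rcor2, a co-repressor, 137, 168 and 144 against 459, 611 and 579 (-1.11, SE 0.26, adjusted p = 0.042), which is dim in both groups. Bmpr1a, a receptor for bone morphogenetic proteins and the 1 gene called of 40 in the TGF-beta, BMP and Wnt pathways, had 762, 656 and 628 against 1346, 1349 and 1283 (-0.80, SE 0.16, adjusted p = 0.0235). Against the sham arrays of day 7 these decreases were smaller and none passed. They were -0.606 for Rab3a, -0.421 for Lnx1, -0.353 for Dusp23, -0.145 for Rcor2 and -0.223 for Bmpr1a. The day 7 sham signals of Rcor2 were 186, 175 and 198, so that its decrease depends largely on which sham group is used.

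None of 21 endothelial, 16 smooth muscle and pericyte, 31 proteasome, 26 myocyte transcription factor and 12 circadian clock genes passed with limma (0 in each), and their medians were -0.01, 0.00, -0.03, -0.13 and 0.01. The share called over all genes was 2.62%, so that lists of this size with 0 calls lie near it. Over all 10527 probe sets, 2259 had an unadjusted p under 0.05. Acta2, the smooth muscle actin that myofibroblasts also make, had 7806, 7630 and 8105 in IR and 4030, 3560 and 6899 in sham ventricles; it did not pass (0.74, SE 0.24, adjusted p = 0.103), with sham replicate 74 near the IR level.

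Set beside day 7, where IR and sham rats were all different animals, 7 of the 202 genes had the opposite sign, and 64 of the 153 that rose and 21 of the 49 that fell also had an adjusted p under 0.05 there. The share of all genes passing at day 7 was not counted, so these counts are not set against it. Both days also came from 1 fit with a shared estimate of the spread. Genes with unequal values on the 2 days included Mcm2, with 0.94 at day 2 and -0.09 at day 7, Ccl2, with 1.77 and -0.20, and Bmpr1a, with -0.80 and 0.25. The tests of those differences did not pass (adjusted p = 0.299, 0.413 and 0.229), so none of the 3 is shown to differ between the days. Arg1 gave 1.34 and 0.46, Fabp5 1.11 and 0.28, and Angptl4 1.81 and 0.08 (adjusted p of the difference 0.642, 0.507 and 0.542). Apoe gave 0.96 and 1.59, and Sdc1 1.32 and 1.08 (0.669 and 0.896). With the sham arrays of day 7 as control, 75 probe sets were called at day 2, of which 42 were among the 260.

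RefSeq promoters were at hand for 125 of the 153 genes that rose and 40 of the 49 that fell. The ETS motif seen before Cd53 was present in 5.6% of promoters of genes that rose, 2.5% of those that fell and 2.51% of 6456 tested genes, and in 7 genes that rose, among them Ctss and Arpc1b. A TATA box (TATAAA) was present in 13.6%, 7.5% and 7.19%, the hypoxia element GACGTG in 10.4%, 5.0% and 9.79%, and the NRF-1 motif GCGCATGCG of mitochondrial genes in 2.4%, 2.5% and 3.39%. The C/EBP motifs TTGCGCAA and TTGCACAA were present in 1.6%, 0.0% and 0.96%, and the motif of estrogen-related receptors TCAAGGTCA in 0.8%, 0.0% and 0.186%. The motif CCAAT was present in 55 of 125 promoters of genes that rose, 20 of 40 of genes that fell and 38.3% of those of tested genes. All were searched as exact letters on both strands of the same 300 bases, and these shares describe the windows without a test.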

How the data were processed

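Gene expression was measured in 12 rat ventricles, 1 array each, in 4 groups of 3 (IR and sham at 2 and 7 days). The deposited values are a linear intensity per probe set, computed by the authors with MAS5 per the submitters' processing notes; the version is not given in the sources used here. The deposited intensity values had been scaled per array, since the mean after leaving out 2% at each end was 1500.4 to 1500.5 on every array. Array medians ran from 637.3 to 719.0. Arrays have no read depth, and their number limits the precision.

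Signals were taken as log2(signal + 195). The 57 control probe sets were left out, and 10527 probe sets above their array's 40th percentile in 3 or more arrays were tested. Names came from GEO's platform annotation: 12789 probe sets have 1 symbol, 312 several and 2822 none. The brightest probe set stood for a gene (7720 genes).

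Group means over all 12 arrays were fitted with limma 3.58.1 in R 4.3.3 (eBayes with trend), two-sided, with Benjamini-Hochberg adjustment over all tested probe sets. On simulated data 71% of changes of 1 and 100% of changes of 2 on the log2 scale were recovered, with 11 false calls. The simulated noise was independent between probe sets and arrays. It held no array set apart across many genes as replicate 69 was, so these figures check the fit and do not give error rates for these data. Named genes were the 25 largest increases and decreases among called genes whose groups did not overlap, the 10 smallest adjusted p-values, up to 5 called and 2 other genes of each list, and genes said to be chosen after their values were seen. The members and the 46 gene lists were chosen with earlier results of these data known, so counts over lists are descriptions. Promoters are RefSeq's on GRCr8, from 250 bases before to 50 after the start. Alternatives covered the offset, the filter, scaling, the trend, array weights, the control group and leaving out each array.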

Additional observations from a re-analysis of the deposited data

Results flagged for a closer look

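Rpl37a was the 1 result whose effects at 2 and 7 days differed by a test of the difference itself. The 2-day effect minus the 7-day effect was -1.55 on the log2 scale (SE 0.21, limma adjusted p = 0.0287), with -1.31 at 2 days and 0.24 at 7 days (3 against 3 arrays each). For this difference 0 probe sets were called in 9 of the 12 fits without 1 array, and 0 when the trend or the filter was dropped. The 3 sham arrays of day 2 had 39104 to 55717 and the other 9 arrays 13025 to 20756. Groups of 3 arrays are too small for a check of single outlying arrays.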

How the results depend on the processing

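Of the 260 calls, 252 kept their sign under every alternative that tested them, and the other 8 turned with the sham arrays of day 7 as control. For the 202 called genes, leaving out 1 array could not turn the sign, since their groups did not overlap. Among named genes that control turned Fn1 (-0.14), Mmp14 (-0.40), Pdp1 (0.029), Micu2 (0.04) and Rpl37a (0.45), and of genes not called Col1a1 (-0.63), Postn (-0.70), S100a8 (-0.22) and S100a9 (-0.81). The count at 2 days was 77 with no filter on dim probe sets, 68 without the intensity trend, 70 without IR replicate 69 of day 2 and sham replicate 82 of day 7 together, 75 with the sham arrays of day 7 as control, and 2780 where groups not overlapping was the rule. It ranged from 2 to 515 with single arrays left out. It was 208 to 388 with the other alternatives, namely offsets of 50 (264) and 800 (248), a filter in 6 arrays (290), median centring (277), quantile normalization (208), array weights (388), the 6 arrays of day 2 (300) and all 6 sham arrays as control (372). The causes were not tested. The difference between days was called for 2 probe sets with the offset of 800, 0 with no filter, 0 without the trend, 3 with array weights, 0 without replicates 69 and 82, and 0 to 6 with single arrays left out. No paired analysis was possible because the groups share no replicate numbers. Signals near background limit dim genes such as Rcor2 and Gar1, whose changes the offset shrinks.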
